A study of Cervus nippon with 12 samples.

Results

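The miRNAs described here are those named bta-miR-1, bta-miR-133 and bta-miR-206 in small RNA libraries of sika deer (Cervus nippon) antler cells, with any letter or arm suffix. They were chosen by name alone, and 5 of the 545 listed names met the rule, namely bta-miR-1, bta-miR-133a, bta-miR-133b, bta-miR-133c and bta-miR-206. Being listed was the condition for entry and is therefore not a result. The 12 libraries fall into 4 groups of 3. CP_0, CP_7 and CP_14 are reserve mesenchyme cells (RMCs), the progenitor cells of the growing antler tip, which had been kept as cell pellets in chondrogenic medium for 0, 7 and 14 days. CC are chondrocytes cultured from antler cartilage. All 4 groups are labelled WT, no group carries a transgene, and the RMCs had been maintained in medium with fetal bovine serum. The antler tips came from 3-year-old males. The labels do not tie a library to an animal or a culture, so that p-values measure the spread between these libraries, which may in part be technical.

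MicroRNAs of these 3 families are often called myomiRs because they are most abundant in heart and skeletal muscle. miR-1 and miR-206 share a seed, the stretch at the 5′ end that pairs with target mRNAs, whereas the miR-133 names form a second family with its own seed. In mammals miR-1 and miR-133a are processed from shared primary transcripts, and miR-206 and miR-133b from another one. miR-1 is known to promote muscle differentiation through repression of HDAC4, and miR-133 is known to repress SRF, a transcription factor of muscle genes. The mature sequences of miR-133a and miR-133b are nearly identical, so reads may be shared or split between these names, and how the counting treated such reads is not given in the sources used here.

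Levels are given as RPM (reads of a miRNA in every 1000000 reads that fell on any listed name), which is not divided by length, or as RPM after scaling with TMM factors, which correct for differences in library composition. The libraries held between 539455 reads (CP_7 replicate 3) and 10256572 reads (CC replicate 1). One read was thus worth 1.85 RPM in the shallowest library and 0.0975 RPM in the deepest. A count of 0 allows up to 3 reads, equal to 5.56 and 0.292 RPM in these libraries, and such limits cover counting error only. Values were tested as log2(TMM-normalized RPM + 1) in limma, over all miRNAs that passed a filter on low reads, with Benjamini-Hochberg adjusted p-values and a threshold of 0.05. Because of the added 1 RPM, fold changes of miRNAs with few reads are understated. Cartilage miRNAs (miR-140 and both arms of miR-455) summed to 9043 to 11415 RPM over the 12 libraries before TMM scaling. After it the groups separated for miR-140. It stood at 4761 to 5376 RPM at day 7, 9598 to 9987 RPM at day 14, 10312 to 11140 RPM at day 0 and 16313 to 17758 RPM in CC. miR-455-5p stood at 515 to 583 RPM in CC and at no more than 305 RPM in any RMC library, and the RMC groups overlapped. miR-455-3p was instead highest at day 7, with 63.8 to 83.4 RPM against 48.1 to 57.5 RPM in CC. It held 40.6 to 50.7 RPM at day 14 and 22.5 to 30.5 RPM at day 0. In bulk RNA of this kind fewer cells of a type and less RNA per cell cannot be told apart.

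A few libraries stood apart from others of their group, and the miRNAs that show it were chosen after their values were seen. CP_0 replicate 3 had 6933 reads of miR-451 and 8312 of miR-486, where CP_0 replicates 1 and 2 had 27 and 29 reads of miR-451 and 7 and 20 of miR-486. In CP_7 replicate 1, miR-370 had 709 reads against 3 and 13 in the other CP_7 libraries, and miR-9-5p had 1430 against 111 and 76. In CP_7 replicate 3, miR-126-3p had 1658 reads and in the other CP_7 libraries at most 333. Results that rest on these libraries are given with and without them.

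miR-1 was the most abundant of the 5 names in every library. The CP_0 libraries had 1624, 2080 and 2293 reads, the CP_7 libraries 3371, 6427 and 2233, the CP_14 libraries 4471, 4858 and 6120 and the CC libraries 6978, 6618 and 7079. It made up 88.5% to 94.6% of the reads of the 5 names together. As a share of all reads, miR-1 stood at 561 ± 63 RPM (SD, n = 3) at day 0, 4916 ± 1143 RPM at day 7, 1597 ± 12 RPM at day 14 and 691 ± 17 RPM in CC. By mean RPM it ranked 45th, 23rd, 30th and 34th among all listed miRNAs in the same groups. Levels were thus far higher at day 7 than in any other group, and they were intermediate at day 14.

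After TMM scaling the mean levels of miR-1 were 641 ± 82 RPM (SD, n = 3) at day 0, 2630 ± 931 RPM at day 7, 1610 ± 73 RPM at day 14 and 1149 ± 63 RPM in CC. The order from the highest to the lowest was CP_7, CP_14, CC and CP_0, and no neighbours in this order overlapped. The lowest CP_7 library held 1979 RPM and the highest CP_14 library 1694 RPM, while the CC libraries held 1092 to 1217 RPM and the CP_0 libraries 588 to 736 RPM. The highest group mean was 4.10 times the lowest.

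**Figure D1:**
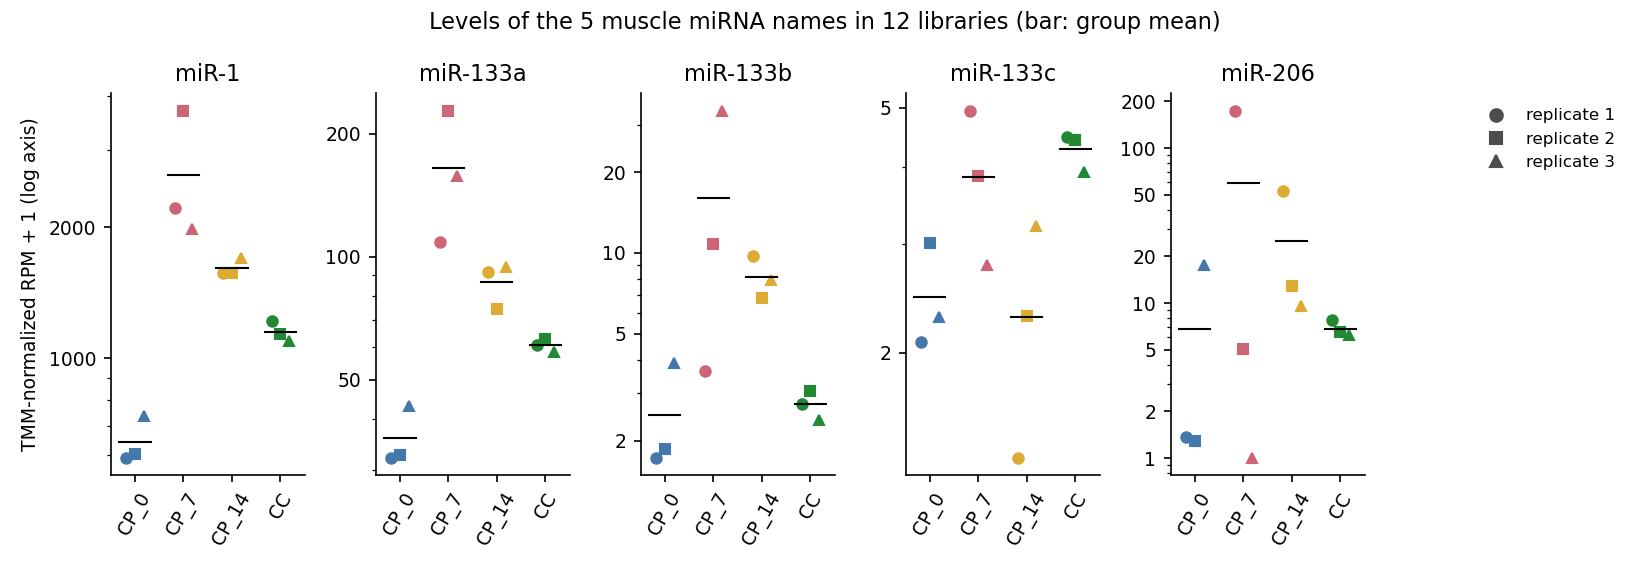
Each panel plots 1 miRNA by group, with the TMM-normalized RPM + 1 of each library on a log axis, symbols for replicates and bars for group means. miR-1 and miR-133a formed 4 separate bands, with CP_7 highest and CP_0 lowest, whereas miR-206 ran from 0 reads to 263 reads within CP_7.

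In the comparison of day 7 with day 0, miR-1 rose with a log2 fold change of 2.04 ± 0.19 (SE, limma adjusted p = 8.84e-05), or 4.10-fold. miR-133a and miR-133b rose as well. Of the 5 names 4 passed the filter and 3 were called, all of them higher, while 35.8% of the 246 miRNAs tested were called higher, 28.0% lower and 63.8% in either direction. The median log2 fold change of the 4 names was 2.12, beside 0.075 over all miRNAs tested. miR-133b passed the filter there only through the CP_7 libraries, so the count and this median describe the names and support nothing further. There were 26 miRNAs with a larger fold change than miR-1, which ranked 27th from the highest. The call of miR-1 was kept without each library in turn, with log2 fold changes from 1.58 (without CP_7 replicate 2) to 2.13 (without CP_7 replicate 3).

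Between day 7 and day 14, miR-1 fell with a log2 fold change of -0.73 ± 0.18 (SE, limma adjusted p = 0.0134). Here 2 of the 4 names that passed the filter were called, both lower, while 28.5% of the 246 miRNAs tested were called lower and 52.8% in either direction. The median log2 fold change was -0.62 over the 4 names and -0.0089 over all miRNAs tested. The log2 fold change of miR-1 came to -0.38 without CP_7 replicate 2, the highest library. Without CP_14 replicate 1 or 2 its size hardly moved (-0.69 and -0.72), although it then missed the threshold.

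Between CP_14 and CP_0, which leave out day 7, miR-1 was higher at day 14 with a log2 fold change of 1.35 ± 0.089 (SE, limma adjusted p = 2.21e-05). Of the 4 names that passed the filter 3 were called higher, where 24.8% of the 250 miRNAs tested were called higher, 21.2% lower and 46.0% in either direction. The median log2 fold change of the 4 names was 1.57, beside 0.010 over all miRNAs tested. miR-133b and miR-206 passed the filter there only through the CP_14 libraries, so this count and median again only describe the names. Because each group enters several comparisons, the comparisons are not independent of each other.

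Chondrocytes held less miR-1 than RMCs at day 14 and more than RMCs at day 0. CC stood below CP_14 with a log2 fold change of -0.50 ± 0.058 (SE, limma adjusted p = 4.59e-05). All 5 names passed the filter in that comparison and all 5 were called, 4 lower and 1 higher in CC. With all 12 libraries in 1 fit 2 of the 5 were called, and with library size as the only scaling 4 were, all lower. miR-133b and miR-133c entered this comparison only through the group in which they were high, so the count describes the names and supports nothing further. Of the 276 miRNAs tested there, 37.0% were called lower, 37.7% higher and 74.6% in either direction, so most miRNAs differed between these groups. The median log2 fold change was -0.51 over the 5 names and 0.086 over all miRNAs tested. CC stood above CP_0 with a log2 fold change of 0.71 ± 0.10 (SE, limma adjusted p = 0.00137), which came to 0.30 with library size only. CC stood below CP_7 with a log2 fold change of -1.42 ± 0.18 (SE, limma adjusted p = 0.000419). That value was -0.62 without CP_7 replicate 2 and stayed past the threshold. Against CP_0, 3 of the 4 names that passed the filter were called higher in CC, where 30.0% of the 260 miRNAs tested were called higher and 55.8% in either direction, and the median log2 fold change was 0.68 over the names and 0.053 over all. With library size only, 1 of these 4 names was called. miR-133c and miR-206 passed the filter against CP_0 only through the CC libraries. Against CP_7, 3 of 5 names were called lower in CC. Of the 276 miRNAs tested there, 38.4% were called lower and 67.4% in either direction, and the median was -1.42 over the names and -0.089 over all. Only the CP_7 libraries carried miR-133b past the filter there, so these counts too describe the names and support nothing further.

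The names that were called were also those whose groups did not overlap in the fit. They include miR-133b and miR-133c where these passed the filter only through the group in which they were high. There were 3 for CP_7 against CP_0, 2 for CP_14 against CP_7, 3 for CP_14 against CP_0, 5 for CC against CP_14, 3 for CC against CP_0 and 3 for CC against CP_7. Over all miRNAs tested the groups did not overlap for 67.9%, 62.2%, 56.4%, 78.6%, 63.1% and 70.7% in the same order, so that a lack of overlap was common among miRNAs at large.

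**Figure D2:**
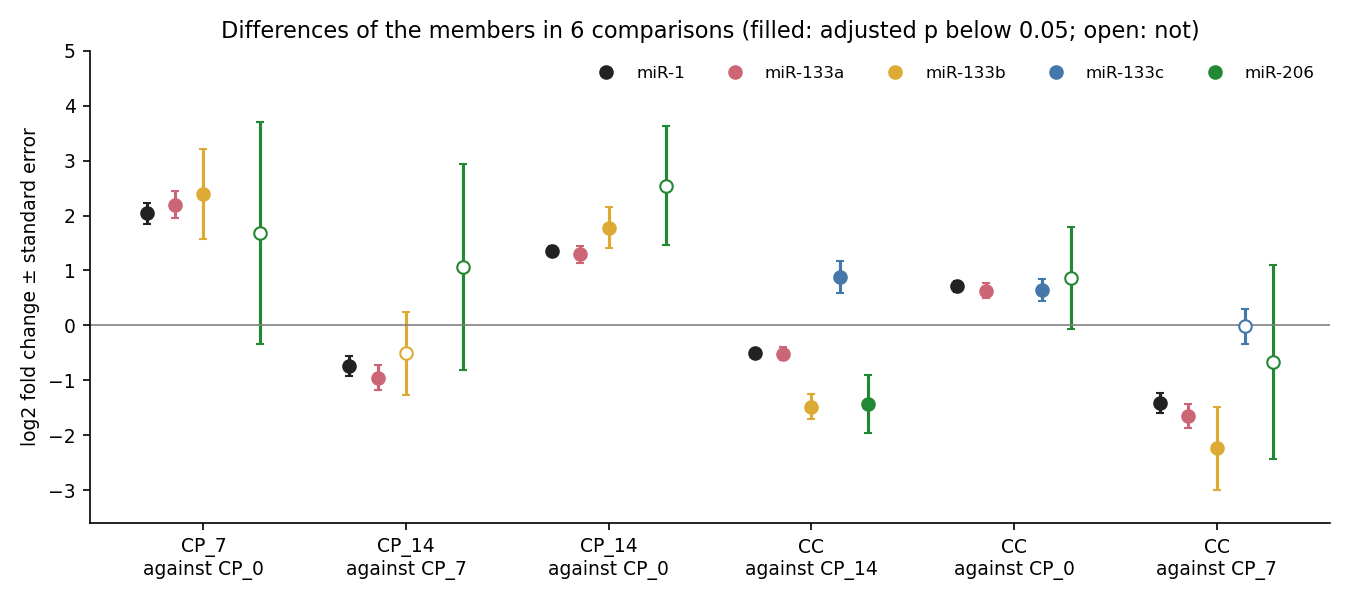
Points give the log2 fold change of each name in 6 pairwise comparisons on log2(TMM-normalized RPM + 1), bars the standard error, and filled points an adjusted p below 0.05. miR-1 and miR-133a lay close together in every comparison, and the bars of miR-206 were the longest throughout.

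miR-133a moved with miR-1 at a far lower level. Its reads were 86, 110 and 131 in the CP_0 libraries, 164, 394 and 177 in those of CP_7, 259, 227 and 337 in those of CP_14 and 344, 360 and 372 in those of CC. These reads corresponded to 30.6 ± 4.8 RPM (SD, n = 3) at day 0, 308 ± 86 RPM at day 7, 85.0 ± 9.1 RPM at day 14 and 36.0 ± 2.1 RPM in CC. After TMM scaling the groups did not overlap, with 31.2 to 42.1 RPM at day 0, 108 to 227 RPM at day 7, 73.3 to 93.3 RPM at day 14 and 57.4 to 61.9 RPM in CC. Without TMM factors, CC and CP_0 did overlap, since CC ran from 33.5 to 37.3 RPM and CP_0 from 26.8 to 36.0 RPM.

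At day 7 miR-133a was higher than at day 0 with a log2 fold change of 2.20 ± 0.24 (SE, limma adjusted p = 0.000179). Leaving out 1 library at a time gave values from 1.75 to 2.32, all past the threshold. The fall from day 7 to day 14 had a log2 fold change of -0.95 ± 0.23 (SE, limma adjusted p = 0.0114). That call was lost without CP_14 replicate 2 (log2 fold change -0.85) and without CP_7 replicate 2 (-0.60). CP_14 stood above CP_0 with a log2 fold change of 1.29 ± 0.15 (SE, limma adjusted p = 0.000488), a value that ran from 1.19 to 1.42 without each library in turn.

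Chondrocytes had less miR-133a than CP_14, with a log2 fold change of -0.51 ± 0.12 (SE, limma adjusted p = 0.00328), and the call was lost with all 12 libraries in 1 fit, at the same -0.51. Against CP_7 the log2 fold change was -1.65 ± 0.22 (SE, limma adjusted p = 0.00046), and it was -0.87 without CP_7 replicate 2, still past the threshold. Against CP_0 miR-133a was higher in CC with a log2 fold change of 0.64 ± 0.14 (SE, limma adjusted p = 0.00854). With library size as the only scaling that last difference was 0.24 and missed the threshold, where the median of all miRNAs tested was at -0.33.

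The scaling sets the size of these differences because the libraries differ in composition. TMM factors ran from 1.68 to 2.09 in CP_7 and from 0.559 to 0.65 in CC. With library size only, the median log2 fold change of all miRNAs tested moved to 1.12 for CP_7 against CP_0 and to -0.84 for CP_14 against CP_7. It moved to 0.16 for CP_14 against CP_0, -0.54 for CC against CP_14, -0.33 for CC against CP_0 and -1.44 for CC against CP_7. Under that scaling 152 miRNAs were called higher and 20 lower at day 7 against day 0, where TMM gave 88 and 69. The splits of higher to lower calls were 26 to 138 for CP_14 against CP_7, 76 to 33 for CP_14 against CP_0, 40 to 163 for CC against CP_14, 30 to 112 for CC against CP_0 and 20 to 191 for CC against CP_7. With TMM they were 60 to 70, 62 to 53, 104 to 102, 78 to 67 and 80 to 106 in the same order.

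A scaling factor moves a miRNA and the median of all miRNAs by nearly the same amount, so the distance between them is fixed almost wholly by construction and is given only to place the names among all miRNAs. For day 7 against day 0, miR-1 lay 1.96 above the median on the log2 scale with TMM, 1.96 with RLE size factors and 1.99 with library size only. For CC against CP_14 it lay below the median, by -0.58, -0.58 and -0.67. miR-133a lay 2.13, 2.12 and 2.14 above the median at day 7 against day 0. The order of the 4 group means was the same for both miRNAs under the 3 scalings, and the highest mean was 8.76 times the lowest for miR-1 and 10.1 times for miR-133a with library size only.

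**Figure D3:**
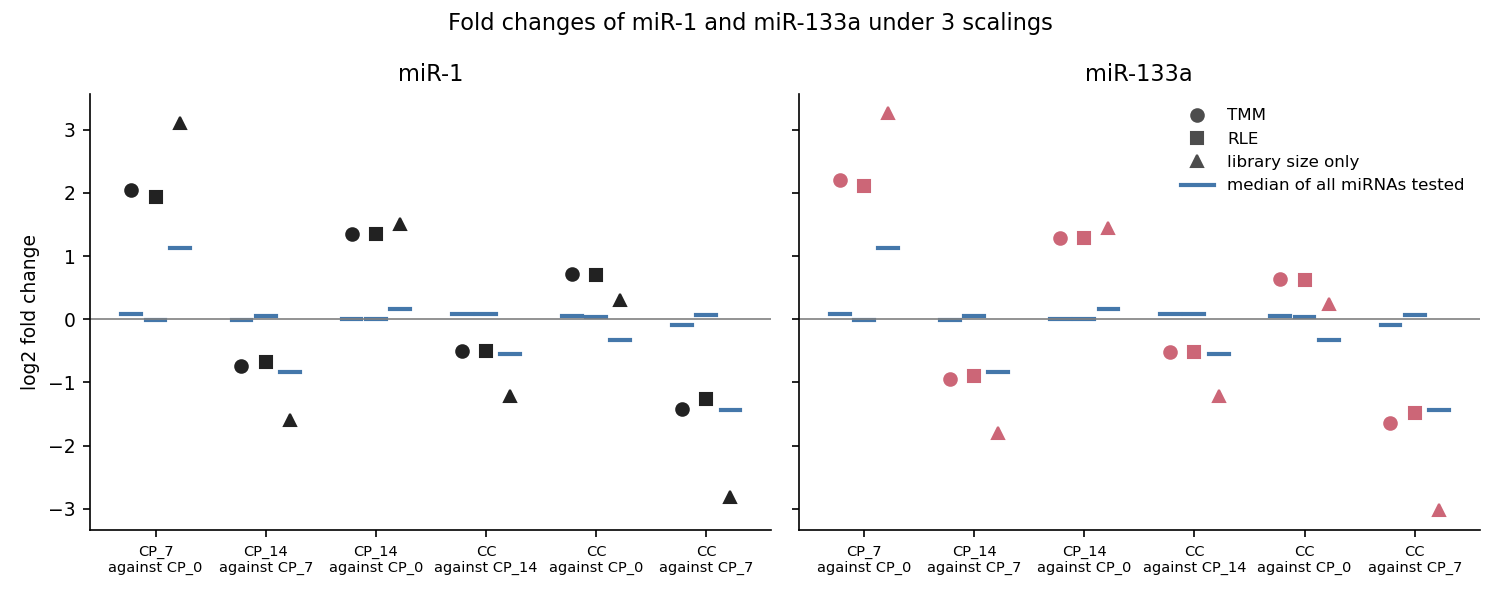
Log2 fold changes of miR-1 and miR-133a in 6 comparisons with TMM, RLE or library size only are drawn as points, and the median of all miRNAs tested as a blue line beside each. The size of a fold change shifted with the scaling, as for miR-1 at day 7 against day 0 (2.04 with TMM, 3.11 with library size only), and the median shifted with it by construction.

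The ratio of miR-1 to miR-133a reads in 1 library does not depend on its scaling. The ratio was 18.9, 18.9 and 17.5 at day 0, 20.6, 16.3 and 12.6 at day 7, 17.3, 21.4 and 18.2 at day 14 and 20.3, 18.4 and 19.0 in CC. The group means were 18.4 ± 0.80 (SD, n = 3), 16.5 ± 4.0, 18.9 ± 2.2 and 19.2 ± 0.97. While the RPM of both miRNAs changed several-fold between groups, the largest difference of the mean log2 ratio between 2 groups was 0.25, between CC and CP_7. Between pairs of groups the two-sided exact permutation p-values were 0.4 to 0.9 (n = 3 per group), with adjusted values of 0.72 to 0.90 over 9 tests of ratios. With 3 libraries against 3 the smallest p this test allows is 0.1, so it could not have passed the threshold, and no conclusion is drawn from it. Read ratios between miRNAs also carry their unequal capture in library preparation and are compared here only between libraries.

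**Figure D4:**
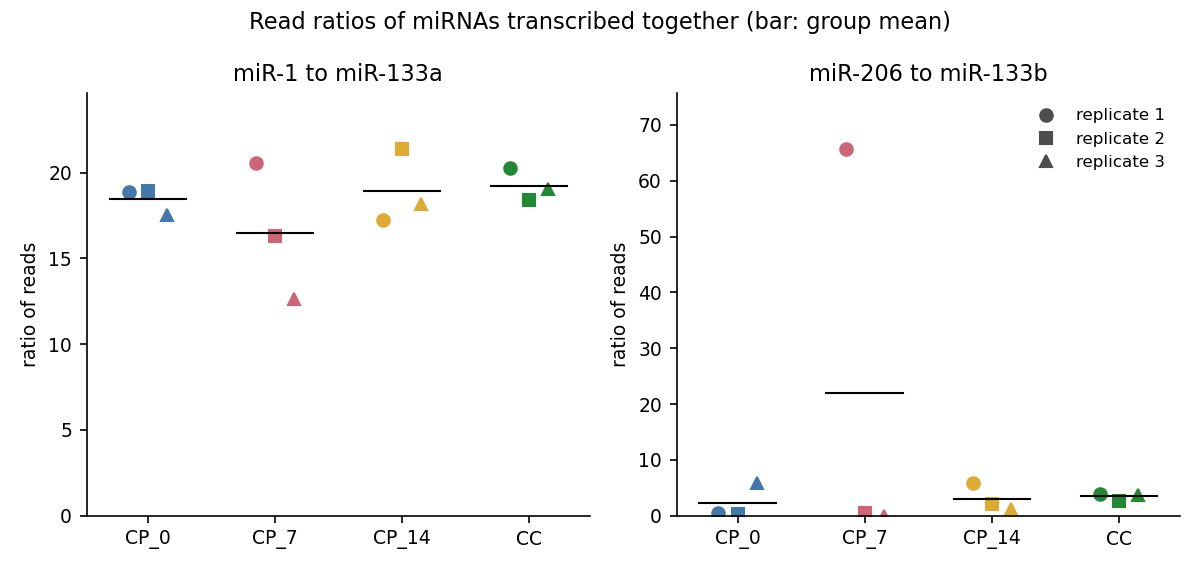
Read ratios of miR-1 to miR-133a and of miR-206 to miR-133b are plotted by group on linear axes that start at 0, with 1 point for each library and bars for group means. The first ratio ran from 12.6 to 21.4 over the 12 libraries, and the second from 0 to 65.8 with both extremes in CP_7.

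miR-133b was sparse. Its reads were 2, 3 and 9 at day 0, 4, 17 and 37 at day 7, 25, 18 and 25 at day 14 and 10, 12 and 9 in CC. Its levels were 1.29 ± 1.02 RPM (SD, n = 3) at day 0, 30.1 ± 33.8 RPM at day 7, 7.13 ± 1.61 RPM at day 14 and 1.04 ± 0.17 RPM in CC. In CP_7 the spread was larger than the mean, and the library with 37 reads was the one with high miR-126-3p. Every CP_14 library was higher than every CP_0 and CC library.

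miR-133b passed the filter in its comparisons of CP_14 with CP_0 and CC only through the CP_14 libraries, the group in which it was high, and these differences are to be read with that in mind. CP_14 held more miR-133b than CP_0 with a log2 fold change of 1.78 ± 0.37 (SE, limma adjusted p = 0.00676). CC held less than CP_14 with a log2 fold change of -1.48 ± 0.22 (SE, limma adjusted p = 0.000243). Both calls were kept without each library in turn. With all 12 libraries in 1 fit the second value was -1.57 and missed the threshold. Between CC and CP_0 miR-133b did not pass the filter on low reads.

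At day 7 against day 0 miR-133b had a log2 fold change of 2.39 ± 0.82 (SE, limma adjusted p = 0.0369), in a comparison for which it passed the filter through its CP_7 reads. That call was lost without CP_7 replicate 2 (log2 fold change 2.22), CP_7 replicate 3 (1.46), CP_0 replicate 1 (2.18) or CP_0 replicate 2 (2.27). On the scale of all 12 libraries the CP_7 values, 2.63 to 32.8 TMM-normalized RPM, overlapped those of CP_0, 0.725 to 2.89. CC against CP_7, where it again passed through the CP_7 reads, gave -2.24 ± 0.75 (SE, limma adjusted p = 0.0331), which missed the threshold without CC replicate 1, 2 or 3 (-2.27, -2.38 and -2.17), CP_7 replicate 2 (-1.82) or CP_7 replicate 3 (-1.22). From day 7 to day 14 it was -0.51 ± 0.76 (SE, limma adjusted p = 0.607), and 0.39 without CP_7 replicate 3. CP_7 replicate 3 also held most of the CP_7 reads of miR-126-3p, a miRNA of endothelial cells, and the part of that library's composition in these results was not tested. Both miR-126 arms summed to 188 to 3083 RPM in the CP_7 libraries and to 47.1 to 63.6 RPM in CP_0. The sums were 57.4 to 83.6 RPM in CP_14 and 28.4 to 38.5 RPM in CC. They were nearly all miR-126-3p. After TMM scaling miR-126-3p held 93.9 to 1469 RPM in CP_7 and 52.8 to 65.8 RPM in CP_0. miR-126-5p had 2, 0 and 5 reads in CP_7 (0 to 9.27 RPM) and 14, 10 and 8 in CP_0 (2.20 to 4.71 RPM).

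Within the reads of the miR-133 names, miR-133b took 2.20% to 8.77% in all libraries except CP_7 replicate 3, where it took 17.1% (95% exact binomial interval 12.4 to 22.8, counting error only). In CP_14 its share was 8.77%, 7.23% and 6.76%, and in CC it was 2.67%, 3.06% and 2.25%. The shares of CP_14 and CC did not overlap.

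miR-133c had the fewest reads. There were 3, 7 and 4 at day 0, 6, 5 and 2 at day 7, 1, 4 and 8 at day 14 and 20, 20 and 19 in CC. At this depth only CC gave a level with a small spread, 1.97 ± 0.079 RPM (SD, n = 3), against 1.27 ± 0.38 in CP_0, 5.45 ± 2.11 in CP_7 and 1.25 ± 0.86 in CP_14. After TMM scaling its order was CC, CP_7, CP_0 and CP_14, unlike that of the other 4 names, and CC overlapped CP_7 just as CP_0 overlapped CP_14. With library size only, CP_7 came before CC.

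In the comparisons of CC with CP_14 and CP_0, miR-133c passed the filter only through the CC libraries, where it was high. It was higher in CC than in CP_14 with a log2 fold change of 0.89 ± 0.29 (SE, limma adjusted p = 0.0204), opposite in sign to the other 4 names in that comparison. The call was lost without CP_14 replicate 1, the library with 1 read (log2 fold change 0.58), with library size only (0.48) and with DESeq2 on the recovered reads (1.23). Against CP_0 it was higher in CC with a log2 fold change of 0.65 ± 0.20 (SE, limma adjusted p = 0.0310), a call lost without CP_0 replicate 1 (0.54) or replicate 3 (0.60) and with replicate number as a block. Against CP_7 the log2 fold change was -0.019 ± 0.32 (SE, limma adjusted p = 0.963), and -1.07 with library size only, then past the threshold. In the 3 comparisons among RMC groups it did not pass the filter. These sizes and calls depend on a few reads.

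miR-206 differed more between libraries of 1 group than between groups. There were 1, 1 and 52 reads of it at day 0, 263, 7 and 0 at day 7, 148, 37 and 31 at day 14 and 39, 32 and 34 in CC. One library supplied 96.3% of the miR-206 reads of CP_0 and 97.4% of those of CP_7. The levels were 4.96 ± 8.09 RPM (SD, n = 3) at day 0, 116 ± 195 RPM at day 7, 24.4 ± 24.9 RPM at day 14 and 3.50 ± 0.27 RPM in CC. In CP_7 replicate 3 the count of 0 reads allows up to 5.56 RPM, above the mean level in CC of 3.50 RPM. This holds only before TMM scaling. The TMM factor was 2.09 in that library, which lowers the limit, whereas the mean level in CC was 5.85 RPM after scaling. CP_0 and CP_7 overlapped every other group, and CP_14 lay above CC without overlap.

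In all 5 comparisons that include CP_0 or CP_7, miR-206 missed the threshold. The log2 fold changes were 1.68 for CP_7 against CP_0 ± 2.03 (SE, limma adjusted p = 0.523) and 2.55 for CP_14 against CP_0 ± 1.09 (SE, limma adjusted p = 0.0859). Without CP_0 replicate 3, CP_14 against CP_0 came to 3.77 and CC against CP_0 moved from 0.86 to 2.00, both then past the threshold. In these comparisons miR-206 passed the filter only through CP_14 or CC, and the CP_0 libraries left held 1 read each. Both calls therefore describe the reads and support nothing further. Without CP_7 replicate 1 the sign turned for CP_7 against CP_0 (-0.55) and for CC against CP_7 (from -0.66 to 1.52). CP_14 against CP_7, at 1.06, rose to 3.25 without CP_7 replicate 1, past the threshold, and turned to -0.65 without CP_7 replicate 3.

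CC held less miR-206 than CP_14 with a log2 fold change of -1.43 ± 0.52 (SE, limma adjusted p = 0.0305). It was -0.69 without CP_14 replicate 1, the library with 148 reads, and the call was lost without CC replicate 2 (-1.41) or CC replicate 3 (-1.39). With all 12 libraries in 1 fit the value was -1.46 and missed the threshold. CP_14 replicates 2 and 3 had 37 and 31 reads and the CC libraries 32 to 39, at depths of 3024668 and 3864900 reads against 9714090 to 10256572. For these 5 libraries the reads were thus alike while the depth was not, and the source of their difference in RPM was not tested. Whether the miR-206 reads reflect RNA of the labelled cells was not tested.

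The libraries with high and low miR-206 also differed in other miRNAs. miR-451, a miRNA of red blood cells, had 6039 to 6933 reads in 7 libraries (CP_0 replicate 3, all CP_14 and all CC) and 2 to 29 in the other 5. miR-486 had 7363 to 8345 reads in the same 7 libraries and far fewer in the other 5, the lowest 7. Within the 7 libraries these reads did not follow the depth. Their coefficient of variation was 5.09% for miR-451, 4.58% for miR-486 and 8.93% for miR-34c, where that of the RPM values was 52.8%, 52.5% and 54.1%. RPM values and fold changes of such miRNAs among these libraries therefore largely mirror the depth, and the cause was not tested. Of the epithelium miRNAs, miR-200a had 74 to 82 reads in these 7 libraries and 0 to 41 in the other 5. miR-200b had 21 to 38 and 0 to 22. miR-200c, miR-141 and miR-205 were instead highest in CP_0 replicate 1 or 2. For miR-206 the counts were 31 to 148 (median 37) in these 7 and 0 to 263 (median 1) in the other 5. In 6 of the 7 libraries, all but CP_14 replicate 1, miR-206 had between 31 and 52 reads. Among miRNAs compared in CP_0 replicate 3, miR-206 had the third-largest ratio of its RPM to the higher of the other 2 CP_0 libraries, 14.2, after miR-486 (468) and miR-451 (210). Their part in the results for miR-206 was not tested.

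In CP_7 replicate 1 miR-206 had the largest such ratio of 181 miRNAs compared, 50.4, followed by miR-370 (38.2), miR-9-5p (13.2), miR-433 (8.41), miR-128 (6.92) and miR-139 (6.21). miR-9-5p and miR-128 are known as abundant miRNAs of nervous tissue. The summed RPM of miR-124a and both arms of miR-9, before TMM scaling, ran from 123 to 1901 in CP_7 and from 52.7 to 177 in the other 9 libraries. After TMM scaling miR-9-5p was raised in CP_7 replicate 1 only, at 939 RPM. CP_7 replicates 2 and 3 held 63.8 and 67.4 RPM of it, below the 92.0 to 184 RPM of the other 9 libraries. miR-124a, the defining neuronal miRNA, had 9 reads in CP_7 replicate 1 and 0 in the other CP_7 libraries. miR-1 and miR-133a did not share this excess, with ratios of 0.703 and 0.558 in that library. In CP_14 replicate 1 miR-206 again had the largest ratio, 4.33 among 213 miRNAs, and the next was miR-92b at 1.90. The part of the composition of these libraries in the levels of miR-206 was not tested.

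**Figure D5:**
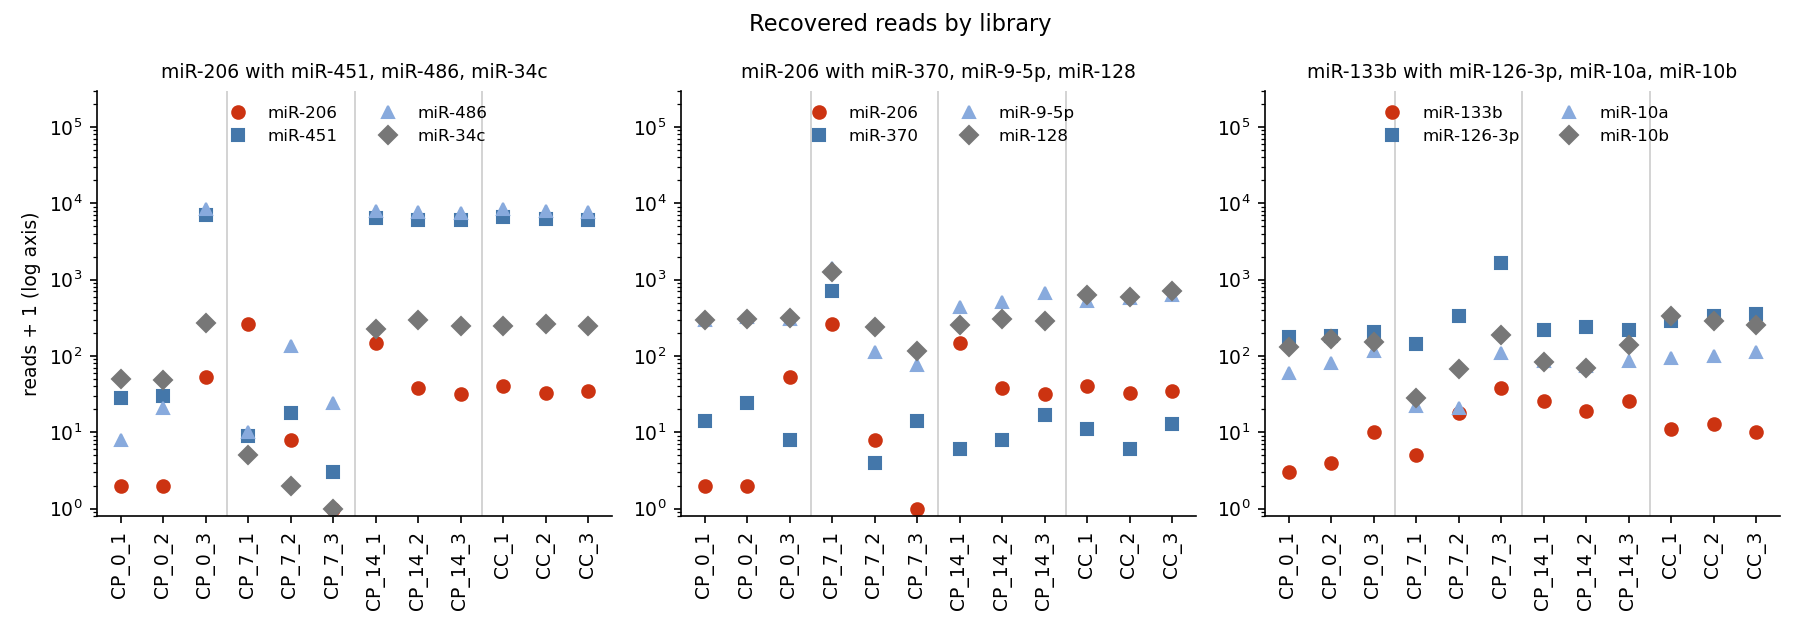
Recovered reads + 1 of miR-206 or miR-133b (red) are plotted by library on log axes, with 3 further miRNAs in each panel chosen after their values were seen (in the left panel miR-206 and miR-34c coincide at 0 reads in CP_7 replicate 3). CP_0 replicate 3 was high in miR-206, miR-451 and miR-486, CP_7 replicate 1 in miR-206, miR-370, miR-9-5p and miR-128, and CP_7 replicate 3 in miR-133b and miR-126-3p.

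miR-206 and miR-133b did not keep a steady ratio. The ratio was 0.5, 0.333 and 5.78 at day 0, 65.8, 0.412 and 0 at day 7, 5.92, 2.06 and 1.24 at day 14 and 3.90, 2.67 and 3.78 in CC. Tests without CP_7, where 1 library has no reads of miR-206, gave two-sided exact permutation p-values of 0.4, 0.6 and 0.4 (n = 3 per group) for CP_14 against CP_0, CC against CP_14 and CC against CP_0. These tests too could not go below 0.1, so they decide nothing. The CP_7 library with the most miR-206 reads had the fewest miR-133b reads of its group, and the one with the most miR-133b reads had none of miR-206.

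The patterns of miR-1 and miR-133a over the 12 libraries were each other's closest match. Likeness was measured as the root mean square difference of log2(TMM-normalized RPM + 1) after each miRNA was centred on its own mean, over 280 miRNAs. Between miR-1 and miR-133a it was 0.186, where miR-1 itself varied by 0.755 about its mean. Next to miR-1 came miR-29d-5p (0.195) and miR-186 (0.295), and next to miR-133a came miR-29d-5p (0.328) and miR-328 (0.356). miR-29d-5p had only 8 to 40 reads in a library.

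For the other 3 names the 3 closest miRNAs with TMM lay outside the muscle families. They were miR-199c (0.655), miR-328 (0.71) and miR-6529a (0.712) for miR-133b, with miR-133a in place 5 at 0.72. This depended on the scaling, since miR-133a was closest to miR-133b with library size only (0.697) and in place 3 with RLE (0.717). For miR-133c they were miR-425-5p (0.238), let-7f (0.284) and miR-98 (0.308). miR-206 was closest to miR-9-5p (1.46), miR-129 (1.57) and miR-128 (1.72), and miR-133b ranked 232nd for it. All these values are descriptions over libraries that share depth and composition within a group.

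The list of other miRNAs known from muscle held miR-208a, miR-208b, miR-499 and miR-486 of heart and skeletal muscle and miR-143 and miR-145 of smooth muscle, of which 4 passed the filter in each comparison. miR-208a, an intronic miRNA of a cardiac myosin gene, had 0 reads in 10 of the 12 libraries and at most 2 in a library. miR-208b had 1 read in all. At day 7 against day 0, 2 of the list rose and 1 fell. CP_14 against CP_7 gave 2 higher and 2 lower, CP_14 against CP_0 1 higher, CC against CP_14 2 lower, CC against CP_0 1 lower and CC against CP_7 1 higher and 2 lower. Over all miRNAs tested, 63.8%, 52.8%, 46.0%, 74.6%, 55.8% and 67.4% were called in either direction in the same order, and 6 names are too few to set apart from these shares. The counts that involve CP_7 include miR-499, which passed the filter there only through the CP_7 libraries.

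miR-499, hosted by another myosin gene, had 8, 13 and 16 reads at day 0, 16, 60 and 24 at day 7, 9, 10 and 4 at day 14 and 17, 13 and 15 in CC. It rose at day 7 against day 0 with a log2 fold change of 2.21 ± 0.42 (SE, limma adjusted p = 0.00276), and it fell from day 7 to day 14 with one of -2.83 ± 0.48 (SE, limma adjusted p = 0.00229). In both comparisons miR-499 passed the filter only through the CP_7 libraries, the group in which it was high. These calls therefore describe its reads and support nothing further. Its level in CP_14 was not called different from CP_0 (log2 fold change -0.52 ± 0.37, SE, limma adjusted p = 0.28), where miR-1 was. miR-143, a miRNA of mesenchymal and smooth muscle cells and the most abundant of the list, went the other way from miR-1 in these comparisons. Its log2 fold change was -1.70 at day 7 against day 0 ± 0.12 (SE, limma adjusted p = 2.26e-05) and 2.27 from day 7 to day 14 ± 0.11 (SE, limma adjusted p = 8.11e-06). Other mesenchyme miRNAs were split in the same 2 comparisons. miR-214 also fell (log2 fold change -0.64) and then rose (1.26). By contrast, miR-199a-3p rose (1.11) and then fell (-0.25), as did miR-199a-5p (0.59 and -0.96). miR-145 rose by 0.69 ± 0.21 (SE, limma adjusted p = 0.0232) and then fell with a log2 fold change of -0.76 ± 0.22 (SE, limma adjusted p = 0.0232). The groups overlapped in both comparisons. CP_7 replicate 3 held 702 TMM-normalized RPM of miR-145, while CP_0 reached 724 and CP_14 reached 749. miR-486, which is also abundant in red blood cells, rose from day 7 to day 14 with a log2 fold change of 6.69 ± 0.74 (SE, limma adjusted p = 0.000267), and its reads, like those of miR-451, did not follow the depth. The 6 blood and serum miRNAs (miR-451, miR-144, miR-142-5p, miR-142-3p, miR-223 and miR-122) summed to 70.2 to 96.4 RPM at day 7 and to 1622 to 2361 RPM at day 14. They summed to 626 to 658 RPM in CC and to as much as 1948 RPM in CP_0, where replicate 3 was the high one. The high sums were mostly miR-451, with 1581 to 2304 RPM at day 14. miR-122 made up most of the day 7 sums, at 53.3 to 79.7 RPM, and before TMM scaling it was lower at day 14, at 23.0 to 30.8 RPM. With TMM its difference from day 7 to day 14 was not called (log2 fold change -0.40 ± 0.20, SE, limma adjusted p = 0.127). In no library did miR-144 exceed 2 reads or miR-142-3p 4 reads.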

How the data were processed

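Small RNA libraries of CP_0, CP_7, CP_14 and CC (n = 3 each) were prepared with a NEBNext kit and sequenced on an Illumina NovaSeq. The deposited values, headed TPM, are RPM that the authors computed per 1000000 reads on all listed miRNAs. The submitters' processing notes name CASAVA, bcl2fastq 1.8.4 and Bowtie. The trimming, counter, miRNA database version or genome build is not given in the sources used here. Deer reads carry cattle (bta-) names. Dividing by the value of 1 read gave whole numbers for 100% of the values of each library (tolerance 0.01 read), so reads were recovered, with 539455 to 10256572 per library.

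The main test was limma 3.58.1 under R 4.3.3 (eBayes with trend, two-sided) on log2(TMM-normalized RPM + 1), fitted on the 6 libraries of each comparison. TMM factors were computed on all miRNAs, and those kept by edgeR's filterByExpr (minimum count 10, minimum total 15) were tested with Benjamini-Hochberg adjustment. Levels by library use TMM factors over all 12 libraries. As alternatives, edgeR 4.0.16 and DESeq2 1.42.0 on the recovered reads called 160 and 159 miRNAs at day 7 against day 0, 134 and 133 at day 14 against day 7, 112 and 104 at day 14 against day 0, and in CC 205 and 184 against CP_14, 142 and 118 against CP_0 and 190 and 186 against CP_7. The limma procedure was tested on simulated data. Ratios were compared by exact permutation tests (SciPy 1.17.1).

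Replicate numbers were checked for pairing by correlating same-numbered deviations from group means over 284 miRNAs. Every correlation exceeded 0.1 only for CC against CP_7 (0.13, 0.12 and 0.17), where a replicate block changed no call of the 5 names. Differently numbered libraries reached 0.058 in that comparison and 0.34 for CC against CP_14, so correlations of this size do not establish a pairing. The labels do not name a shared animal or batch. Chi-square statistics between libraries of a group were at least 4.92 per degree of freedom, so none was counted as a copy.

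All names meeting the rule were described, with a list of other muscle miRNAs and the 3 miRNAs most like each name (among those with at least 10 reads in 3 libraries). The members, lists and tests were chosen with earlier results of these data known. Further miRNAs named for single libraries (at least 20 reads) were chosen after their values were seen.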

Additional observations from a re-analysis of the deposited data

How the results depend on the processing

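The alternatives were no filter, RLE factors, library size only, pseudocounts of 0.5 and 5 RPM, edgeR and DESeq2 on recovered reads, all 12 libraries in 1 fit, the replicate number as a block, the miR-133 names summed and each library left out. Leaving out CP_0 replicate 3 and CP_7 replicate 1 together was chosen after seeing the data. It gave log2 fold changes of 2.17 for miR-1 and 2.54 for miR-133a at day 7 against day 0, with 3 names called. None of these alternatives turned a sign among the log2 fold changes of miR-1 and miR-133a. The number of the 5 names called fell from 5 to 2 with all 12 libraries in 1 fit for CC against CP_14 and from 3 to 1 with library size only for CC against CP_0. Without 1 library it ran from 2 to 3 for CP_7 against CP_0, 0 to 3 for CP_14 against CP_7, 3 to 4 for CP_14 against CP_0, 3 to 5 for CC against CP_14, 2 to 3 for CC against CP_0 and 2 to 3 for CC against CP_7. The cause was not tested.

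Signs turned for log2 fold changes of miR-206, miR-133b and miR-133c that missed the threshold in both settings. For miR-206 these were CP_7 against CP_0 without CP_7 replicate 1 (-0.55), CP_14 against CP_7 with edgeR (-1.49) and without CP_7 replicate 3 (-0.65), CC against CP_0 with edgeR (-0.13) and DESeq2 (-0.14) and CC against CP_7 without CP_7 replicate 1 (1.52). For miR-133b it was CP_14 against CP_7 without CP_7 replicate 3 (0.39). For miR-133c they were CC against CP_7 with RLE factors (0.099), DESeq2 (0.028), all 12 libraries (0.19), without CP_7 replicate 1 (0.44) and without CP_7 replicate 2 (0.37). The cause was not tested. Over the libraries left out in turn, these differences of miR-206 ran from -0.55 to 3.30 for CP_7 against CP_0, -0.65 to 3.25 for CP_14 against CP_7 and -2.13 to 1.52 for CC against CP_7, that of miR-133b from -1.26 to 0.39 and that of miR-133c from -0.052 to 0.44. All 12 libraries in 1 fit also put miR-133a in CC against CP_14 at -0.51, short of the threshold.

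With the replicate block, 151 miRNAs were called for CP_7 against CP_0, 100 for CP_14 against CP_7, 105 for CP_14 against CP_0, 189 for CC against CP_14, 118 for CC against CP_0 and 189 for CC against CP_7. Of the names, only miR-133c in CC against CP_0 lost its call (log2 fold change 0.65). Same-numbered correlations outside CC against CP_7 ran from -0.29 to 0.13, and replicate numbers are not taken to pair libraries in any comparison. With the miR-133 names summed, the names called were not counted, and the difference of the log2 ratio of miR-206 to miR-133 between CC and CP_14 was -1.05 where that to miR-133b was 0.46. No ratio of miR-206 to miR-133b was tested with CP_7. Depth limits miR-133b, miR-133c and miR-206, whose counts in single libraries were often under 10 reads.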
